A study of Homo sapiens with 6 samples.

Results

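Ion channel genes were followed in HCT116 cells, an established human colorectal carcinoma line, that carried MLL4 (labelled MLL4WT) or had it knocked out (labelled MLL4KO). The genes were chosen by their names and by a measured value, the total count over the 6 libraries. A gene was taken if its protein-coding symbol began with KCN, SCN, HCN, CACN, CLCN, TRPC, TRPM, TRPV or P2RX, and if it held 60 or more counts in all. Genes on chromosome 21 and between 70.57 and 113.44 Mb of chromosome 8 were left out. These rules gave 74 of the 59715 gene IDs in the table. Of 182 protein-coding symbols with such a name, 155 had at least 1 count and 75 of those reached the minimum. The one of the 75 that was left out was TRPM2, on chromosome 21. Just inside the limit were KCNK9 with 69 counts, KCNJ10 with 75, and CACNA1D and TRPV1 with 80 each. Just outside were CACNG7 with 55, CACNA2D4 with 50 and SCN3B with 45. HCN4 and SCNN1A, which mark the group, were picked with their difference between the genotypes known, so their values are given as a description with no test.

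The study compared poly(A)-selected RNA from 3 MLL4WT and 3 MLL4KO libraries of HCT116 cells. Both genotypes were grown in the same DMEM medium with fetal bovine serum, and no treatment is named in the labels. The labels give neither the deleted stretch of MLL4 nor whether the knockout is 1 clone, and they do not say that replicates came from separate cultures. The p-values below therefore measure the spread between these libraries, which may be technical.

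Ion channels are membrane proteins whose pores let sodium, potassium, calcium or chloride cross down their gradients. Voltage-gated families open on a change in membrane potential and are best known from nerve and heart, while epithelial channels such as the amiloride-sensitive sodium channel set salt and water transport across the gut and kidney lining. MLL4 is a histone H3 lysine 4 methyltransferase, and KMT2D, the gene most often meant by that name, is known mainly for the methylation of enhancers. The question here is how RNA levels of the channel genes differ when MLL4 is knocked out.

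Upstream sequences were considered for called genes with at least 200 bases free of annotated exons in the 250 bases before the RefSeq gene start. Among these genes, the sequences of 4 are shown, those of the 3 largest rises and of KCNK3, the only fall. They are from RefSeq on GRCh38.p14, run 5′ to 3′ on the gene's strand, and have CG dinucleotides in capitals. The window of CACNA1D is chr3:53494361-53494610 on the plus strand, that of KCNJ4 is chr22:38444029-38444278 on the minus strand, that of KCNC1 is chr11:17734531-17734773 on the plus strand, and that of KCNK3 is chr2:26692472-26692689 on the plus strand.
CACNA1D: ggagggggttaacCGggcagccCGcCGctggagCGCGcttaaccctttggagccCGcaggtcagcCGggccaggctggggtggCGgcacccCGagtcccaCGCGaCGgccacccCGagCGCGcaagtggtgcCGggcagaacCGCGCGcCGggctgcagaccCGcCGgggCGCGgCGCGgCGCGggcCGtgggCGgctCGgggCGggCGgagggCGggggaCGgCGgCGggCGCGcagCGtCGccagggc
KCNJ4: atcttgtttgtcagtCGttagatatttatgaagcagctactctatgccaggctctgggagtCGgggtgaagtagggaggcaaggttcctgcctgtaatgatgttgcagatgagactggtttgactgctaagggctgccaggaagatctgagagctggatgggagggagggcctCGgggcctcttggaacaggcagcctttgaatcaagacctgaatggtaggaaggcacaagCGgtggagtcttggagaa
KCNC1: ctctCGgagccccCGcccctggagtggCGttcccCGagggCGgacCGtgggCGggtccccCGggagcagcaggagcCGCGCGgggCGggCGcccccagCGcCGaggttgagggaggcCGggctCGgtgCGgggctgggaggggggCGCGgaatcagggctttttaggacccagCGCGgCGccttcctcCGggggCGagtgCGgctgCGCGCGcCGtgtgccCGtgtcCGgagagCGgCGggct
KCNK3: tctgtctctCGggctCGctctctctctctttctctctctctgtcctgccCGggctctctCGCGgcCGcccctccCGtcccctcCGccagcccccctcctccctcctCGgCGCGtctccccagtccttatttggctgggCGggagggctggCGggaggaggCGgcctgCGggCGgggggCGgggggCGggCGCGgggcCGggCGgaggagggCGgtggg

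The 4 windows differed widely in CG content: CACNA1D held 41 CG dinucleotides in 250 bases, KCNC1 held 34 in 243, KCNK3 held 23 in 218 and KCNJ4 held 4 in 250. CACNA1D and KCNJ4, both higher in MLL4KO, thus lay at opposite ends. The start of CACNA1D and of KCNJ4 in RefSeq lies inside the longer GENCODE 29 gene, so each window is upstream of 1 of its annotated starts. Of the 74 genes, 51 had a window in the RefSeq table. SCNN1A, KCNK9 and TRPV2, which all fell more than KCNK3, had none. The HCN4 window held 14 CG dinucleotides in 250 bases, but all of it lies in an annotated exon and it is not shown. The median was 27 CG dinucleotides in the 22 windows of genes called higher in MLL4KO, 26.5 in 4 of genes called lower, and 16 in 25 of genes that did not pass the test. Over the 10659 windows of all tested genes the median was 21. The GC box GGGCGG, sought on both strands, was found in 78.4% of the ion channel windows, 68.4% of those of all tested genes and 42.3% of all 27305 windows. Each GC box holds a CG dinucleotide, so this measure overlaps with the CG count.

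Library totals ran from 6829400 to 19736751 counts, and the shallowest was MLL4WT replicate 1. That library also differed more from its partners than the others did: the chi-square of its counts, divided by the degrees of freedom, was 7.54 and 7.56 against the other two MLL4WT libraries, while the remaining pairs of a genotype gave 1.8 to 2.48. KMT2D, the gene most often meant by MLL4, was at 240, 231 and 234 CPM, the count per 1e+06 counts of the scaled library, in MLL4WT and at 230, 243 and 225 in MLL4KO. The RNA level of KMT2D thus did not separate the genotypes, and since the deleted stretch is not given it checks no label. KMT2B, which has also been called MLL4, was at 94.1, 90.3 and 87.2 CPM in MLL4WT and at 67.1, 61.9 and 60.6 in MLL4KO, 1.42-fold lower (edgeR adjusted p = 2.33e-05). Of 10 epithelial markers fixed for the check, 8 were tested, none was called higher and 6 were called lower, and their summed level was 1750 to 1800 CPM in MLL4WT and 1170 to 1190 in MLL4KO. EPCAM was at 291 ± 9.62 CPM in MLL4WT and 203 ± 6.2 in MLL4KO, and KRT8 at 713 ± 11.6 and 438 ± 5.57 (SD, n = 3). CDH1, at 10.9 ± 0.932 and 11.3 ± 0.725 CPM, and CDX2, at 28.7 ± 2.25 and 30.5 ± 1.94 (SD, n = 3), were tested and not called. Summed neuronal markers were at 232 to 256 CPM in MLL4WT and 154 to 166 in MLL4KO, most of it TUBB3, which is also found outside neurons, and without TUBB3 at 24.3 to 25.5 and 19.8 to 25.1. Of 6 tested neuronal markers 2, SYT1 and TUBB3, were called lower and 4 were not called. Of 4 tested fibroblast markers 2 were called higher and 1 lower, changes in opposite directions that their sum does not show. Summed fibroblast markers were at 30.2 to 32.5 and 31.6 to 35.7, cardiac muscle markers at 7.58 to 15.8 and 8.9 to 12.7, and 6 leukocyte markers at 0.743 to 1.3 and 1.04 to 2.1. With HBB and HBA1, 2 haemoglobin genes that stood in the same list, the sum was 1.51 to 3.12 and 3.53 to 4.87. Most of the cardiac muscle sum was TNNI3, at 10.1 ± 2.94 and 8.9 ± 0.437 CPM (SD, n = 3). MYH7 had counts only in MLL4WT replicate 2, with 14, and MLL4KO replicates 2 and 3, with 22 and 18. MYH6 had 15, 5 and 8 counts in the same libraries and none elsewhere. NEFL, a neuronal marker, had counts only in MLL4WT replicate 3, with 9, and MLL4KO replicate 1, with 14. POSTN and NKG7 were at 0 in all libraries, and the part of these markers in the results below was not tested. In bulk RNA, fewer cells that express a gene and less RNA per cell cannot be told apart.

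More ion channel genes were higher than lower in MLL4KO. Of the 74, all of which passed the filter on low counts, 30 were called higher, 8 lower and 36 did not pass (edgeR's quasi-likelihood test, p-values adjusted by Benjamini and Hochberg's method over all 14543 tested genes, threshold 0.05). These counts include HCN4 and SCNN1A, and also CACNA1D, KCNJ10 and KCNK9, whose place above the minimum of 60 counts rests mostly on the genotype where they were higher. DESeq2's Wald test on the same libraries called 19 higher and 7 lower, beside 13.7% and 16.1% of all genes it tested. The 12 genes it no longer called were CACNA1B, CACNB1, CACNB4, KCND1, KCNH2, KCNJ10, KCNJ11, KCNK13, KCNN4, SCN4B, SCNN1D and TRPV3. The shares were 40.5% higher and 10.8% lower, against a background of 19.8% higher, 21.6% lower and 41.4% called in either direction over all tested genes. Among all tested genes that were called, 47.9% were higher, or 60.8% with scaling by total counts, where 34 ion channel genes were called higher and 7 lower. The median log2 fold change of the 74 was 0.32, beside 0 for all tested genes. Most shifts were small: 8 genes were at least 2-fold higher and 4 at least 2-fold lower, where 2.72% and 2.25% of all tested genes met those rules. The median fold was 1.54 among the genes called higher and 1.94 among those called lower. All MLL4KO libraries lay above all MLL4WT libraries for 33 genes and below them for 11, where the background was 25.9% and 26.6% of tested genes. The family counts that follow are of few genes each and are to be read against the same 19.8% and 21.6%. The plot of fold changes by channel family shows that most points lie on the side of MLL4KO.

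**Figure D1:**
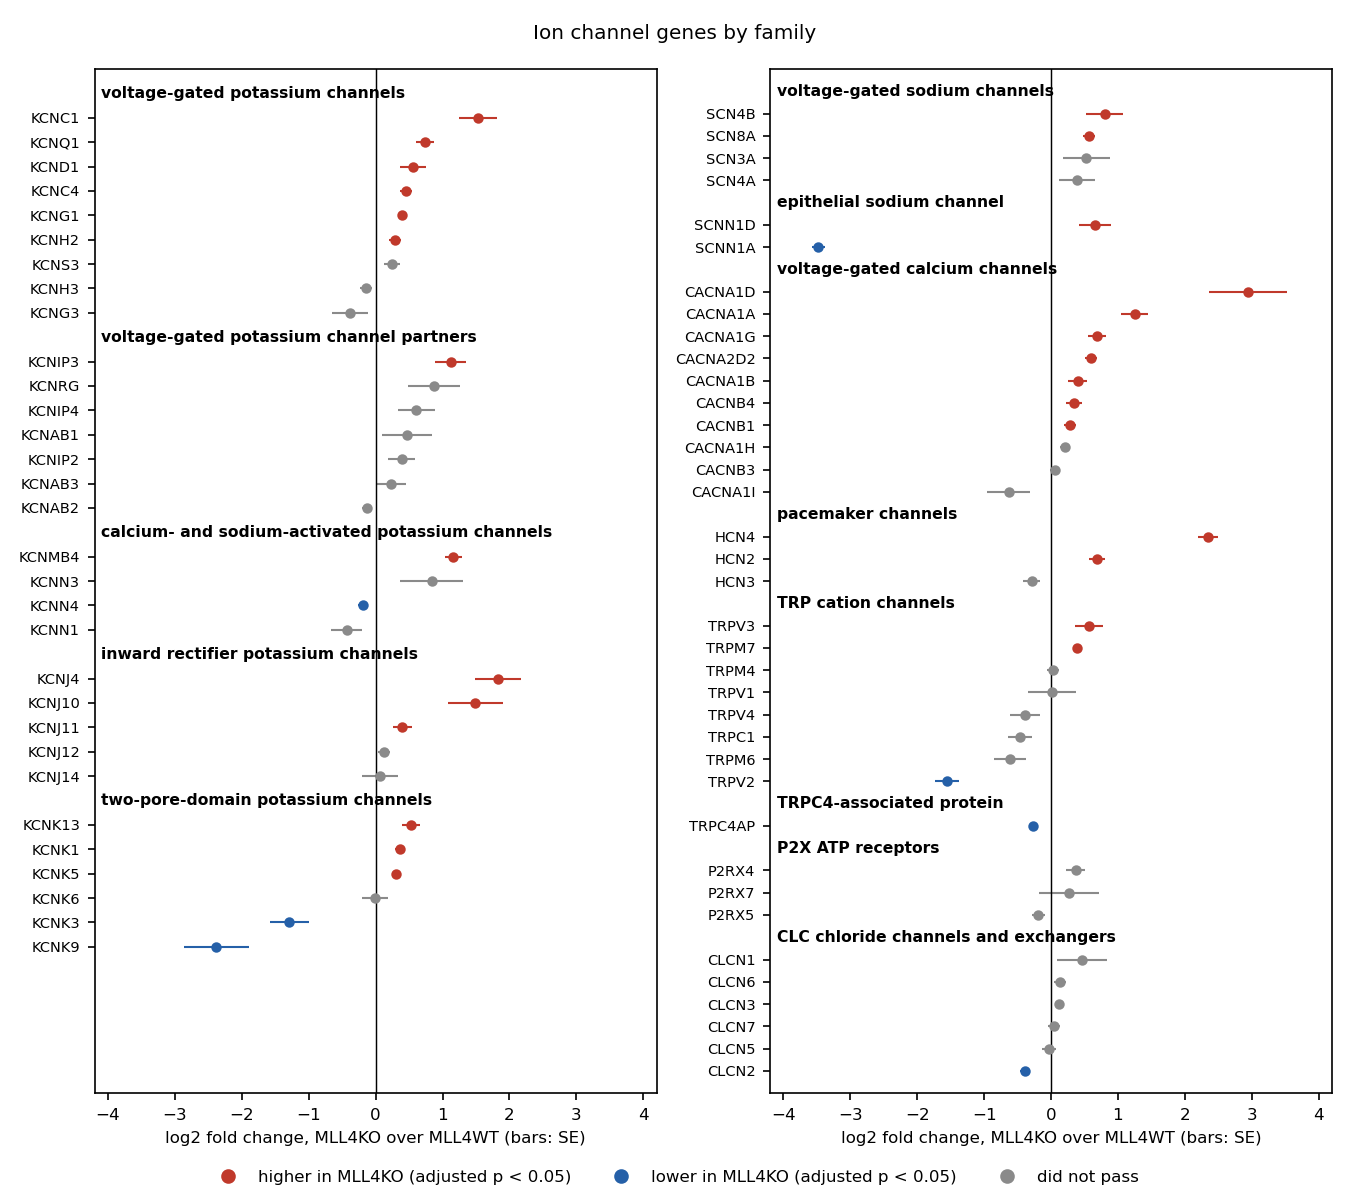
Log2 fold change (MLL4KO over MLL4WT) of 68 of the 74 ion channel genes, grouped by family, with bars for the standard error of the fit and colours for the call. HCN4 at 2.34 and SCNN1A at -3.48 lie far out on opposite sides, and voltage-gated calcium channel genes hold 7 called higher and none called lower.

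The genes were mostly at low levels, and the counts are therefore also given by level. Of the 74, 45 had a mean under 10 CPM, and 19 of these were called higher and 3 lower. Among all tested genes under 10 CPM the shares called were 17.4% higher and 10.4% lower, with a median log2 fold change of 0.10 beside 0.40 for the ion channel genes. At 10 CPM or more, 11 of 29 ion channel genes were called higher and 5 lower, against 21% and 26.7% of all tested genes, with medians of 0.13 and -0.03. The minimum of 60 counts applied to a sum in which MLL4KO contributed 50372144 of the counts and MLL4WT 39671209, so it admitted genes that were higher in MLL4KO more readily. With a minimum of 200 counts, 53 genes remained, of which 24 were called higher and 7 lower, with a median of 0.25. The plot of level against fold change shows every ion channel gene among all tested genes.

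**Figure D2:**
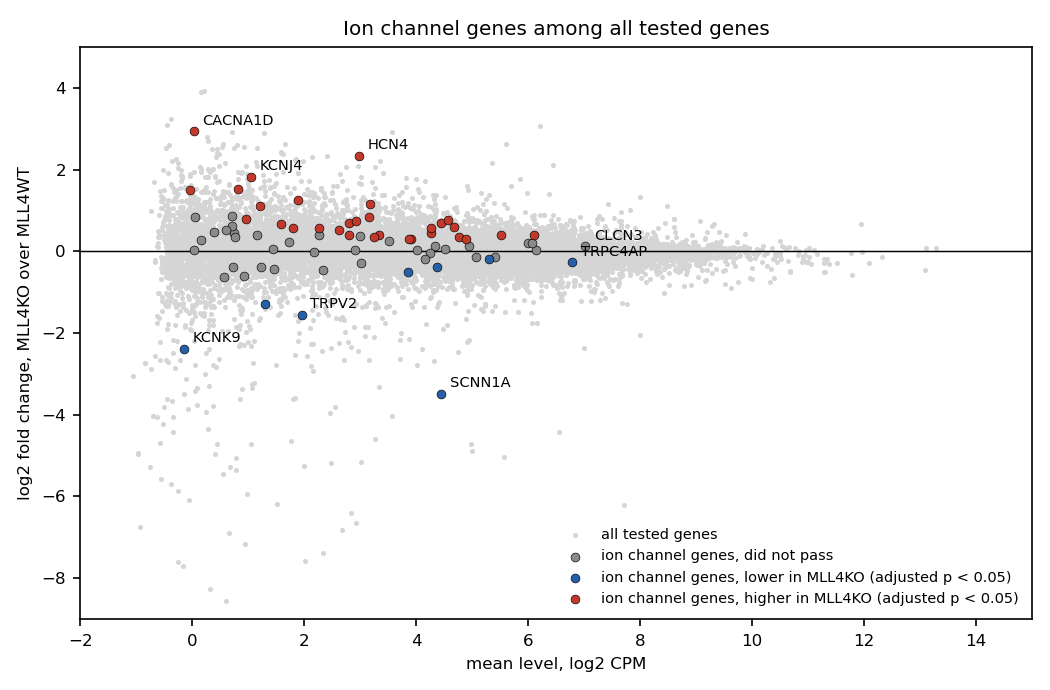
Mean level (log2 CPM) against log2 fold change (MLL4KO over MLL4WT) for all 14543 tested genes in grey and the 74 ion channel genes in colour by call. The genes called higher are found from the lowest levels up to TRPM7, and SCNN1A stands apart below the other ion channel genes of similar level.

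HCN4 had the largest difference among the pacemaker channels, which open on hyperpolarization and pass a mixed sodium and potassium current. HCN4 (ENSG00000138622, chr15:73319859-73369264, minus strand), the main pacemaker channel of the sinoatrial node, was at 2.82, 2.13 and 2.35 CPM in MLL4WT and at 12.8, 12.3 and 10.8 CPM in MLL4KO. Every MLL4KO library was far above every MLL4WT library, and the 3 libraries of each genotype lay close together. The difference was 5.06-fold, or 2.34 ± 0.15 (SE) on the log2 scale, and rested on 91 counts in MLL4WT and 620 in MLL4KO. HCN2, the relative found widely in brain and heart, was the highest of the family per kb of exon and was at 20.5, 15.8 and 14.2 CPM in MLL4WT and at 23.9, 28.3 and 26.4 CPM in MLL4KO. HCN2 rose 1.61-fold with no overlap between the genotypes (edgeR adjusted p = 0.000669). HCN3 was at 8.71 ± 1.33 CPM in MLL4WT and 7.24 ± 0.525 in MLL4KO (SD, n = 3; edgeR adjusted p = 0.101), and its libraries overlapped. Per kb of exon, HCN4 stood at 0.337 CPM in MLL4WT against 4.94 for HCN2, and at 1.66 against 7.68 in MLL4KO, so HCN2 remained the higher of the pair in both genotypes.

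SCNN1A differed most of all 74 genes, and in the other direction. It encodes the alpha subunit of the epithelial sodium channel, which takes up sodium at the apical face of colon, kidney and airway epithelium. SCNN1A (ENSG00000111319, chr12:6346843-6377730, minus strand) was at 48.6, 41.4 and 41.2 CPM in MLL4WT and at 4.08, 3.70 and 3.79 CPM in MLL4KO. The MLL4WT libraries were all at 41.2 CPM or above and the MLL4KO libraries all at 4.08 or below, with no overlap. The difference was 11.1-fold lower in MLL4KO, or -3.48 ± 0.10 (SE) on the log2 scale. Per kb of exon, the level went from 7.44 CPM to 0.656. Exons of LTBR, the lymphotoxin beta receptor gene on the other strand, cover 7.18% of the SCNN1A exon length, and LTBR was at 123 ± 9.67 CPM in MLL4WT and 94.4 ± 2.77 in MLL4KO (SD, n = 3). SCNN1D, the delta subunit, was at 2.23 ± 0.39 and 3.38 ± 0.788 CPM, rising 1.58-fold (edgeR adjusted p = 0.0434), a call that was lost with any of MLL4WT replicates 2 and 3 or MLL4KO replicates 1 and 2 left out. The partner subunits of the classical channel were close to absent: SCNN1B had 9 counts over the 6 libraries and SCNN1G had 0. The summed level of SCNN1A and SCNN1D was 45.9 CPM in MLL4WT and 7.24 in MLL4KO.

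**Figure D3:**
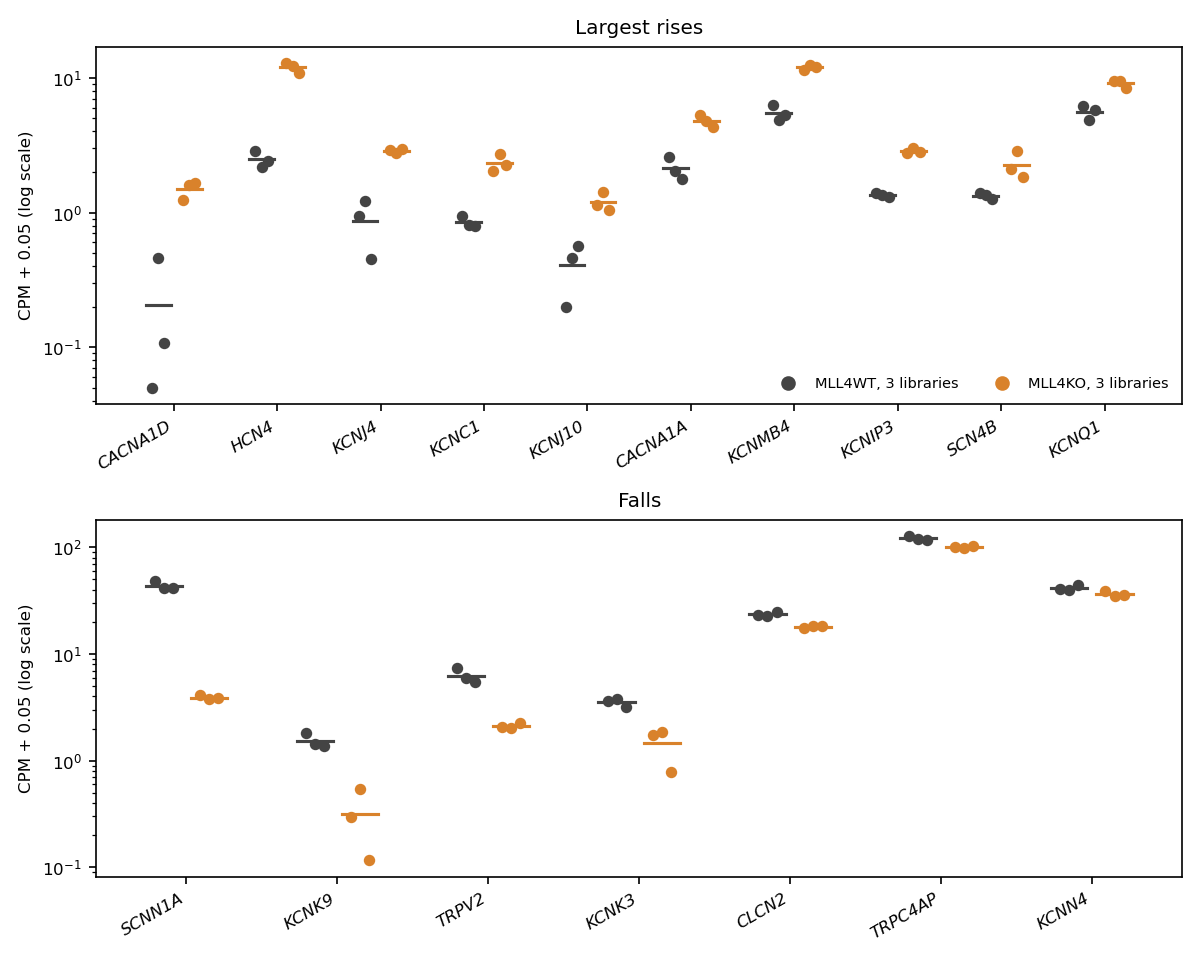
CPM plus 0.05 (log axis) in each of the 6 libraries for 10 of the 12 largest rises and 7 of the 8 falls, with MLL4WT and MLL4KO libraries in separate colours and a short line for the mean of 3. HCN4 goes from 2.43 to 12 CPM and SCNN1A from 43.7 to 3.86 CPM between the genotype means.

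Voltage-gated calcium channel genes were called higher in 7 of 10 cases and lower in none. CACNA1D, the pore of the L-type channel Cav1.3, was at 0, 0.412 and 0.0574 CPM in MLL4WT and at 1.19, 1.54 and 1.60 CPM in MLL4KO. All MLL4WT libraries were near the floor, with 7 counts together, while the MLL4KO libraries held 73. The fitted difference was 7.66-fold, or 2.94 ± 0.58 (SE) on the log2 scale. It is given with no test, since CACNA1D reached the minimum of 60 counts only through its MLL4KO counts. MLL4WT replicate 2 held most of the MLL4WT counts, and without it the fitted log2 fold change was 4.88. CACNA1A, the P/Q-type pore of presynaptic terminals, was at 2.53, 1.99 and 1.72 CPM in MLL4WT and at 5.27, 4.74 and 4.25 CPM in MLL4KO. It rose 2.39-fold with no overlap (edgeR adjusted p = 0.000377). CACNA2D2, an alpha-2-delta subunit that brings the pore to the membrane, had the smallest adjusted p of the family and was at 23.6, 17.3 and 19.9 CPM in MLL4WT and 30.3, 30.7 and 28.9 in MLL4KO. It rose 1.51-fold, again with separate groups (edgeR adjusted p = 0.000336).

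Smaller shifts made up the rest of the calcium channel family. CACNA1G, a low-voltage-activated T-type pore, rose 1.62-fold from 5.14 ± 0.492 to 8.19 ± 0.544 CPM (SD, n = 3; edgeR adjusted p = 0.00135). CACNA1B, the N-type pore, was called 1.32-fold higher (edgeR adjusted p = 0.0325), yet its libraries overlapped, since MLL4WT replicate 1 at 11.0 CPM reached the MLL4KO range of 11.0 to 11.4, and the call was lost with any library but MLL4WT replicate 1 left out. The beta subunits CACNB1 and CACNB4, which sit on the inner face of the pore, rose 1.22-fold and 1.27-fold (edgeR adjusted p = 0.0192 and 0.0386). The call of CACNB1 was lost without MLL4WT replicate 2 or 3 or MLL4KO replicate 1 or 2, and that of CACNB4 without MLL4WT replicate 3 or MLL4KO replicate 2 or 3. CACNA1H, another T-type pore and the highest of the family per kb of exon, was at 70.0, 54.0 and 56.1 CPM in MLL4WT and at 68.7, 70.1 and 65.5 CPM in MLL4KO. MLL4WT replicate 1 lay among the MLL4KO libraries, and CACNA1H did not pass (1.16-fold, edgeR adjusted p = 0.0617). CACNB3 was at 22.5 ± 0.998 and 23.2 ± 0.666 CPM, and CACNA1I, the third T-type pore, at 1.62 ± 0.473 and 1.10 ± 0.278 (SD, n = 3), and neither passed. CACNA1C, the cardiac L-type pore, had 8 counts in all and stayed below the minimum.

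Of 6 voltage-gated sodium channel genes, 3 rose and none fell. SCN8A, the Nav1.6 pore of axon initial segments, rose 1.48-fold from 15.1 ± 1.29 to 22.4 ± 1.64 CPM (SD, n = 3; edgeR adjusted p = 0.000413). SCN4B, a beta subunit, was at 1.34, 1.30 and 1.21 CPM in MLL4WT and at 2.04, 2.83 and 1.79 CPM in MLL4KO. It rose 1.74-fold with no overlap (edgeR adjusted p = 0.0355), but the call was lost without MLL4WT replicate 2 or 3 or MLL4KO replicate 1 or 2. SCN3A and SCN4A, further pores, did not pass, with folds of 1.44 and 1.31. SCN9A, SCN2A and SCN1A were below the minimum, with 13, 22 and 8 counts in all.

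Voltage-gated potassium channel pores repolarize the membrane, and 7 of 12 rose while 1 fell. KCNC1, a fast Kv3 channel, was at 0.892, 0.754 and 0.747 CPM in MLL4WT and at 1.99, 2.65 and 2.19 CPM in MLL4KO. It rose 2.89-fold with no overlap (edgeR adjusted p = 0.00115). Its relative KCNC4 rose 1.38-fold from 16.3 ± 2.39 to 21.8 ± 0.649 CPM (SD, n = 3; edgeR adjusted p = 0.00205), and its groups were separate too. KCNQ1, the Kv7.1 channel of heart and of colon epithelium, was at 6.09, 4.80 and 5.69 CPM in MLL4WT and at 9.45, 9.49 and 8.31 CPM in MLL4KO. It rose 1.67-fold with no overlap (edgeR adjusted p = 0.00092).

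Modifier subunits and relatives of hERG made up most of the rest of the family. KCNG1, an electrically silent modifier subunit, rose 1.32-fold from 39.1 ± 1.95 to 51.2 ± 2.28 CPM (SD, n = 3; edgeR adjusted p = 0.000358). KCNH2, the hERG channel, and KCND1, an A-type Kv4 channel, rose 1.23-fold and 1.47-fold (edgeR adjusted p = 0.0221 and 0.0357). The KCNH2 call was lost without MLL4WT replicate 3 or MLL4KO replicate 1 or 2, and that of KCND1 without MLL4WT replicate 2 or 3 or MLL4KO replicate 1 or 3. KCNH3, a relative of hERG and the highest of the family per kb of exon, was at 54.1, 39.8 and 43.4 CPM in MLL4WT and at 40.9, 40.0 and 39.9 CPM in MLL4KO. Only MLL4WT replicate 1 and, by less, MLL4WT replicate 3 lay above the MLL4KO libraries, and KCNH3 did not pass (edgeR adjusted p = 0.207). KCNS3 and KCNG3, both modifier subunits, did not pass either, at 10.2 ± 1.37 and 12.3 ± 1.10 CPM and at 1.74 ± 0.109 and 1.34 ± 0.145 CPM (SD, n = 3).

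Partners of the voltage-gated potassium pores mostly did not pass the test, with 1 of 7 higher and none lower. KCNIP3, a calcium-binding protein of Kv4 channels that is also known as the transcriptional repressor DREAM, was at 1.34, 1.30 and 1.26 CPM in MLL4WT and at 2.74, 2.96 and 2.79 CPM in MLL4KO. The groups were narrow and separate, and KCNIP3 rose 2.18-fold (edgeR adjusted p = 0.00203). KCNAB2, a cytosolic beta subunit and the highest of the partners per kb of exon, was at 35.5, 36.6 and 32.6 CPM in MLL4WT and at 32.3, 30.3 and 32.7 CPM in MLL4KO. The ranges met at their edges and KCNAB2 did not pass (edgeR adjusted p = 0.161). KCNIP2, KCNIP4, KCNAB1, KCNAB3 and KCNRG had fold changes of 1.31, 1.53, 1.39, 1.17 and 1.82, all towards MLL4KO and none called. Exons of TRIM13 cover 66.8% of the KCNRG exon length on a shared stretch, and TRIM13 itself was at 10.4 ± 1.76 CPM in MLL4WT and 18.3 ± 0.55 in MLL4KO (SD, n = 3), so the KCNRG value is uncertain.

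Inward rectifiers set the resting potential, and 3 of 5 were higher. KCNJ4, the Kir2.3 channel, was at 0.892, 1.17 and 0.402 CPM in MLL4WT and at 2.84, 2.71 and 2.92 CPM in MLL4KO. Every MLL4KO library held more than every MLL4WT library, and KCNJ4 rose 3.56-fold (1.83 ± 0.34 log2, SE; edgeR adjusted p = 0.000962). KCNJ10, the Kir4.1 channel of glia and kidney, was at 0.149, 0.412 and 0.517 CPM in MLL4WT and at 1.09, 1.36 and 0.997 CPM in MLL4KO. It was 2.80-fold higher in MLL4KO without overlap, given with no test because its 75 counts, most of them in MLL4KO, lie just above the minimum. KCNJ11, the pore of the ATP-sensitive channel, rose 1.32-fold from 5.88 ± 0.746 to 7.58 ± 0.725 CPM (SD, n = 3; edgeR adjusted p = 0.0404) and no longer passed without MLL4WT replicate 2 or 3 or MLL4KO replicate 1 or 2. KCNJ12, a Kir2.2 channel and the highest of the family per kb of exon, was at 31.9, 28.9 and 27.9 CPM in MLL4WT and at 34.7, 32.7 and 28.2 CPM in MLL4KO. The groups overlapped and it did not pass (edgeR adjusted p = 0.263). KCNJ12 shares sequence with the near-identical KCNJ18, which was assigned 7 counts in all, so the split between the pair is uncertain. KCNJ14 was at 2.56 ± 0.728 and 2.61 ± 0.55 CPM (SD, n = 3).

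Two-pore-domain potassium channels carry background leak, and they split, with 3 of 6 higher and 2 lower. KCNK9, the acid-sensitive TASK-3 channel, was at 1.78, 1.37 and 1.32 CPM in MLL4WT and at 0.249, 0.493 and 0.0665 CPM in MLL4KO. All MLL4KO libraries lay below all MLL4WT libraries, and KCNK9 was 5.19-fold lower on 55 counts in MLL4WT and 14 in MLL4KO. No test is given, because its total lies just above the minimum and most of it came from MLL4WT. Without MLL4KO replicate 2 its log2 fold change went from -2.38 to -3.04. KCNK9 lies on chromosome 8, distal to the stretch that was left out. KCNK3, its close relative TASK-1, was at 3.57, 3.77 and 3.16 CPM in MLL4WT and at 1.69, 1.79 and 0.731 CPM in MLL4KO. It fell 2.44-fold with separate groups (edgeR adjusted p = 0.004), so TASK-1 and TASK-3 were both lower in MLL4KO. KCNK5, the TASK-2 channel of epithelia and the highest of the family per kb of exon, was at 26.0, 25.6 and 26.7 CPM in MLL4WT and at 34.6, 31.9 and 30.4 CPM in MLL4KO. It rose 1.24-fold with no overlap (edgeR adjusted p = 0.00455). KCNK1 rose 1.28-fold from 23.5 ± 1.01 to 30.1 ± 1.84 CPM (SD, n = 3; edgeR adjusted p = 0.00219), and KCNK13 rose 1.44-fold (edgeR adjusted p = 0.0115), though it no longer passed once MLL4WT replicate 3 was left out. KCNK6 was at 4.47 ± 0.522 and 4.34 ± 0.842 CPM (SD, n = 3).

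The 4 calcium- and sodium-activated potassium channel genes held 1 rise and 1 fall. KCNMB4, a beta subunit of the large-conductance channel, was at 6.24, 4.80 and 5.28 CPM in MLL4WT and at 11.3, 12.4 and 12 CPM in MLL4KO. It rose 2.23-fold with separate groups (edgeR adjusted p = 1.99e-05), although KCNMA1, the pore that it accompanies, had 3 counts over the 6 libraries. KCNN4, the intermediate-conductance channel of epithelia and lymphocytes, was at 40.9, 39.8 and 44.0 CPM in MLL4WT and at 38.6, 34.6 and 35.8 CPM in MLL4KO. It was called 1.14-fold lower (edgeR adjusted p = 0.0405), but the call was lost without MLL4WT replicate 3 or MLL4KO replicate 2 or 3, and under scaling by total counts or upper quartiles. KCNN1 and KCNN3, small-conductance channels, did not pass, at 3.19 ± 0.776 and 2.31 ± 0.298 CPM and at 0.759 ± 0.641 and 1.13 ± 0.0175 CPM (SD, n = 3). Without MLL4WT replicate 1, which had the highest KCNN3 value at 1.49 CPM, the log2 fold change of KCNN3 went from 0.84 to 1.47 and passed the test.

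Of 8 TRP channels, which sense temperature, lipids and osmotic stress, 2 were higher and 1 lower, shares of 25% and 12.5% that lie near those of all tested genes. TRPV2 was at 7.28, 5.90 and 5.40 CPM in MLL4WT and at 2.04, 1.97 and 2.19 CPM in MLL4KO. The groups were well apart, and TRPV2 fell 2.93-fold (1.55 log2 units lower, SE 0.18; edgeR adjusted p = 3.88e-05). TRPM7, a magnesium- and calcium-permeable channel with its own kinase domain and the highest of the family per kb of exon, was at 55.4, 63.0 and 58.1 CPM in MLL4WT and at 73.0, 76.9 and 83.0 CPM in MLL4KO. It rose 1.31-fold with no overlap (edgeR adjusted p = 0.000489). TRPV3 rose 1.49-fold from 2.55 ± 0.55 to 3.91 ± 0.591 CPM (SD, n = 3; edgeR adjusted p = 0.0487), a call near the threshold that was lost without MLL4WT replicate 1 or 3 or MLL4KO replicate 2 or 3. TRPM6, the relative of TRPM7, was at 2.19 ± 0.0997 and 1.44 ± 0.143 CPM, TRPV4 at 2.51 ± 0.213 and 1.93 ± 0.137, and TRPC1 at 5.89 ± 1.12 and 4.21 ± 0.548 (SD, n = 3), none of them called (edgeR adjusted p = 0.0622, 0.177 and 0.0579). TRPM4 and TRPV1 both had a fold of 1.02, and exons of neighbouring genes, SHPK among them, cover 30% of the TRPV1 exon length. TRPC4AP, which the name rule brings in but which is a ubiquitin ligase subunit rather than a channel, was at 128, 120 and 116 CPM in MLL4WT and at 101, 98.3 and 102 CPM in MLL4KO. It fell 1.21-fold with separate groups (edgeR adjusted p = 0.000992).

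Chloride channels and P2X receptors were mostly not called. Of 7 CLC genes, CLCN2, a plasma-membrane chloride channel of epithelia, was the one called, at 23.0, 22.6 and 24.9 CPM in MLL4WT and 17.6, 18.4 and 18.1 CPM in MLL4KO. It fell 1.31-fold with separate groups (edgeR adjusted p = 0.00132), and exons of FAM131A cover 24.7% of its exon length. CLCN3, an endosomal chloride-proton exchanger and the highest CLC gene per kb of exon, was at 118, 123 and 129 CPM in MLL4WT and at 132, 134 and 137 CPM in MLL4KO. The groups did not overlap, but CLCN3 did not pass at 1.09-fold (edgeR adjusted p = 0.0708). CLCN5, CLCN6 and CLCN7, which also work in endosomes and lysosomes, had folds of 1.02, 1.09 and 1.03, and CLCN1 had 1.37, none of them called. P2X receptors are cation channels opened by extracellular ATP, and none of the 3 was called. P2RX5, the highest of them per kb of exon, was at 19.0, 20 and 17.9 CPM in MLL4WT and at 18.1, 14.5 and 17.2 CPM in MLL4KO. Its groups overlapped (edgeR adjusted p = 0.153), and exons of a readthrough gene cover 41.6% of its exon length. P2RX4 was at 6.69 ± 0.208 and 8.66 ± 1.41 CPM and P2RX7 at 0.859 ± 0.364 and 1.02 ± 0.506 (SD, n = 3; edgeR adjusted p = 0.0542 and 0.671).

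Levels were then compared between genes per kb of exon, as drawn in the plot of levels per kb in each genotype. The exon length used is the union over all annotated transcripts of a gene, which understates the level of genes with long rare exons such as CACNA1A at 43.2 kb. TRPC4AP led with 37.7 CPM per kb in MLL4WT and 31.1 in MLL4KO, followed by CLCN3 with 15.2 and 16.6 and KCNN4 with 12.2 and 10.7. In MLL4WT, SCNN1A at 7.44 CPM per kb stood between KCNG1 at 7.18 and CLCN7 at 8.61, whereas in MLL4KO, at 0.656, it stood between TRPV2 at 0.607 and KCNK6 at 0.704. CACNA1D was the lowest in MLL4WT at 0.00759 CPM per kb, and in MLL4KO, at 0.0701, it stood above KCNK9 at 0.0397. The summed level of the 74 genes was 1140 to 1250 CPM in MLL4WT and 1260 to 1280 in MLL4KO, with the highest MLL4WT value in replicate 1.

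**Figure D4:**
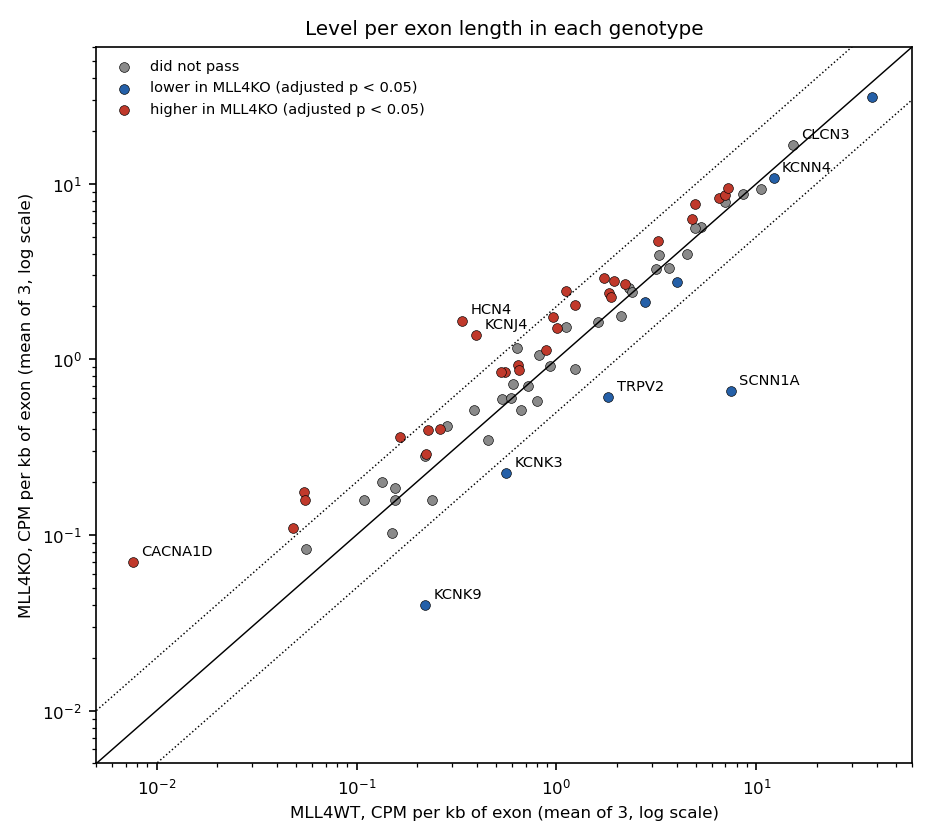
Mean CPM per kb of exon in MLL4WT (x axis, log scale) against MLL4KO (y axis, log scale) for the 74 ion channel genes, coloured by call; the solid line marks equal levels and the dotted lines a 2-fold difference. CACNA1D, HCN4, KCNJ4, KCNJ10, KCNC1, CACNA1A, KCNMB4 and KCNIP3 lie above the upper dotted line. SCNN1A, TRPV2, KCNK3 and KCNK9 lie below the lower one.

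The genes called lay on many chromosomes. The 74 genes were spread over 20 chromosomes, those called higher over 15 with at most 4 on 1 chromosome, and those called lower over 8 with 1 each. The column names carry a code that the labels do not explain, shared by MLL4WT replicate 3 with MLL4KO replicate 1, and by MLL4WT replicate 2 with MLL4KO replicates 2 and 3, while MLL4WT replicate 1 has a code of its own. The few counts of the cardiac markers MYH6 and MYH7 fell only in the code of MLL4WT replicate 2, and those of NEFL only in that of MLL4WT replicate 3. Other cardiac and neuronal markers had counts in more than 1 code, and the part of this in the ion channel results was not tested. The median log2 difference over the 74 genes was 0.32 and 0.29 within the 2 shared codes, in the order given above. HCN4 differed by 2.22 and 2.19 log2 within the codes and SCNN1A by -3.19 and -3.30, on a log2 scale with a pseudocount of 0.5 CPM.

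Other genes of ion transport, from lists chosen with earlier results of these data known, were called in both directions. Of 41 tested genes of other channel families, 9 were called higher and 8 lower, with a median log2 fold change of 0.06. Those shares, 22% and 19.5%, are near the 19.8% and 21.6% of all tested genes. Among them ITPR2, an intracellular calcium release channel, rose 1.86-fold from 11.5 ± 1.02 to 21.9 ± 1.07 CPM, and LRRC8D, a subunit of the volume-regulated anion channel, rose 1.33-fold (SD, n = 3; edgeR adjusted p = 1.06e-05 and 0.00166). TMC5 fell 1.96-fold and TPCN1, a lysosomal cation channel, fell 1.5-fold (edgeR adjusted p = 9.14e-06 and 0.000106). Of 22 tested pumps and carriers, 5 (22.7%) were called higher and 6 (27.3%) lower, with a median of 0. SLC26A2, a sulfate carrier, rose 1.49-fold, while ATP1B1, a subunit of the sodium pump, and SLC4A2, an anion exchanger, fell 1.49-fold and 1.12-fold (edgeR adjusted p = 2.13e-05, 3.58e-05 and 0.00713). Of 26 tested channel regulators and scaffolds, 7 (26.9%) were called higher and 4 (15.4%) lower, with a median of 0.05. PLCG1, a phospholipase, and SGK3, a kinase of the SGK family, rose 1.42-fold and 1.27-fold, and STK39, a kinase of chloride cotransporters, and ST14, a membrane protease, fell 1.75-fold and 1.46-fold (edgeR adjusted p = 8.34e-06, 0.00194, 1.93e-06 and 5.85e-06). Among regulators of the epithelial sodium channel, the kinase SGK1 rose 1.60-fold (edgeR adjusted p = 0.00198), and the ubiquitin ligase NEDD4L and the protease PRSS8 did not pass (edgeR adjusted p = 0.0842 and 0.107). The difference between these lists and the 74 genes was not tested.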

How the data were processed

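RNA was sequenced from 6 HCT116 libraries, grouped by the genotype in the labels. The authors deposited 1 table of estimated counts per Ensembl gene, whole numbers. Per the submitters' processing notes, Salmon 1.8.0, DESeq2 1.44.0 and hg38 were used, but their roles are not stated. The annotation release and the strand setting are not given in the sources used here, so whether reads of overlapping genes were kept apart is not known. All 6 value columns were used and 0 were left out. Depth limits precision: 1 count was worth 0.149 CPM in MLL4WT replicate 1 and 0.0497 to 0.0686 in the others.

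Symbols came from the gene name table, positions and exon lengths from GENCODE 29 on GRCh38, upstream sequences from RefSeq on GRCh38.p14. Every gene was fitted with edgeR 4.0.16 in R 4.3.3 (filterByExpr, TMM scaling, robust quasi-likelihood test) and Benjamini-Hochberg adjustment over 14543 genes, at a threshold of 0.05. CPM used TMM-scaled library sizes. In counts simulated for MLL4KO against MLL4WT over 14543 genes, the fit recovered 48%, 78%, 80% and 100% of 50 genes changed 1.25-, 1.5-, 2- and 4-fold, and 18 of 171 calls were false. The simulation changed a far smaller share of genes than the 41.4% called in the data, and drew them over all levels. The median level was 7.26 CPM for the ion channel genes and 26.7 for all tested genes. These rates are therefore not the recovery or false share of the ion channel calls. Alternatives were other scalings and filters, DESeq2 1.42.0, a replicate block, the column code as a term, each library left out, other count minimums, and, chosen after seeing the data, removal of GC and length trends. The 74 genes and the lists were chosen with earlier results of these data known. Values per library were given for HCN4, SCNN1A, the 12 largest rises and 12 largest falls with separate groups (7 fell besides SCNN1A), and the gene with the smallest adjusted p and with the highest level per kb in each family. From each ion transport list the 2 genes with the smallest adjusted p in each direction were named. SGK1, NEDD4L and PRSS8, the markers TNNI3, MYH6, MYH7 and NEFL, and the genes below the count minimum, were named after their values were seen. For 6 of the 74 genes and some genes outside them, single values are not reported here, and these genes stay in all counts.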

Additional observations from a re-analysis of the deposited data

How the results depend on the processing

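The directions of all 38 called ion channel genes held under all 15 alternatives of scaling, filter, tool, covariate and library. The count called higher was 30, and DESeq2's Wald test gave 19, with 7 lower, beside 13.7% and 16.1% of all genes it tested. Of the 30 calls higher, 19 were kept under every one of the 15, and of the 8 lower, 7, all but KCNN4. These counts hold HCN4 and SCNN1A, which were picked for their difference, and are no support for it. With each library left out in turn, 22 to 36 genes were called higher and 7 to 9 lower, with medians of 0.27 to 0.35 log2. Over all tested genes the shares in these fits were 14.6% to 23.7% higher and 15.7% to 25.7% lower. The highest count of ion channel genes, 36, came without MLL4WT replicate 1. In that fit 49.5% of all tested genes were called in either direction, beside 41.4% in the main fit. With total counts as the scaling, 34 were called higher and 7 lower with a median of 0.39, while the median of all tested genes moved to 0.06 and the share higher among all called genes from 47.9% to 60.8%. Upper quartile factors gave 34 and 7, and a share of 59% among all genes. Removing GC and length trends gave 32 and 9, with KCNN4, TRPV3 and CACNB4 lost and 6 genes gained. The code of the column names as a term gave 36 and 10, with TRPV3 and CACNB4 lost, no filter 33 and 7, and the stricter filter 30 and 8 of 73 tested genes. From the GC and length removal to the stricter filter, 20.4%, 23.9%, 11.5% and 21.2% of all tested genes were called higher, in that order. The shares called lower were 22.5%, 27.4%, 12% and 21.7%. The replicate number as a block gave 27 higher and 8 lower, with a median of 0.30, and lost SCNN1D, KCNJ11 and SCN4B. Over all tested genes 18.5% were then called higher and 20.8% lower. Same-numbered libraries did not deviate together, with correlations of 0.02, 0.03 and 0.00, so the block pairs libraries that share only a number, and not every library correlated best with its own number. With 30 or more counts, 30 genes were called higher and 9 lower, and with TRPM2 kept in, 30 and 8. The causes of these shifts were not tested. Genes near the count minimum rest on few reads, and with 3 libraries a genotype small folds can be missed.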
